A study of Rattus norvegicus with 28 samples.

Results

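The genes described here are 37 cytokine and immune genes of rat skeletal muscle: chemokines and their receptors (Ccl, Ccr, Cxcl and Cxcr), interleukins and interleukin receptors (Il followed by a digit), tumour necrosis factor genes (Tnf), interferon-induced genes and interferon regulatory factors (Ifi and Irf) and major histocompatibility genes (RT1). They were every gene whose symbol begins with these prefixes in the study's own supplemental list of genes that responded to overexpression of the vitamin D receptor (VDR), matched by Ensembl identifier to the count files, and they are 37 of the 32883 genes counted. That list keeps genes with a small p in the VDR overexpression contrast, so a difference in that contrast was the condition for entry. The values of the genes in that contrast are therefore given as a description with no test, and they were tested only in the other arm of the experiment, which the list did not use.

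RNA-Seq counts were analysed for 28 tibialis anterior muscles from 14 Wistar rats, with both legs of each rat sampled and 7 rats in each of 2 arms. In the VDR-OE arm (rats 416 to 422) the right muscle received a plasmid carrying mouse VDR by in vivo electrotransfer, in which electric pulses carry injected DNA into the fibres, and the left muscle received the empty plasmid. In the VDR-KD arm (rats 423 to 429) the right muscle received a short hairpin RNA against VDR and the left a scrambled hairpin; the labels call the status of these muscles a knock-out, although a hairpin lowers a transcript and does not delete the gene. All rats received the analgesic carprofen at 50 mg/kg, an anti-inflammatory drug. By the study's methods the rats were male, 8 weeks old before 1 week of acclimatisation, were given deuterated water by gavage and were fasted overnight before collection 10 days after electrotransfer. The methods describe these steps for VDR-OE, and those of the VDR-KD arm are not given separately. They also mention injected lenti-shRNA particles without naming an arm, and do not say whether the vehicle differed between the arms. The backbone of the VDR plasmid is named differently in the labels and in the methods.

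Chemokines are small secreted proteins that draw leukocytes into tissue through receptors with several membrane-spanning segments, and interleukins and tumour necrosis factor ligands act on leukocytes and on resident cells such as fibroblasts and muscle fibres. Interferons switch on interferon regulatory factors, and interferon-gamma in particular raises the major histocompatibility complex class II molecules with which macrophages, dendritic cells and B cells present peptides to T cells. Resting muscle fibres carry little class II, and most of its signal in whole muscle is usually ascribed to resident and infiltrating leukocytes. In these whole-muscle libraries, fewer cells of a type and less RNA per cell cannot be told apart.

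Vdr itself was read first, as a check of the labels. Vdr lay between 1.91 and 6.73 normalised counts (CPM, reads per 1000000, scaled by the trimmed mean of M-values) with a median of 3.93 in the 7 empty-vector legs, and between 5.45 and 5938 with a median of 2299 in the 7 VDR-OE legs. In 6 of 7 rats the VDR-OE leg lay far above its control leg. The exception was rat 419, where the leg labelled VDR-OE held 5.45 CPM against 5.75 CPM in its control leg, and the median and counts over the genes are therefore also given without that rat. In the VDR-KD arm, Vdr ranged from 1.39 to 8.12 CPM (median 3.41) in the scramble legs and from 1.94 to 6.54 CPM (median 2.59) in the legs labelled VDR-KD. These groups overlapped, with Vdr lower in the labelled leg of 4 of 7 rats and a log2 fold change of -0.26 (adjusted p = 0.839 by edgeR's quasi-likelihood test with the rat as a block), so that arm is called by its label throughout. Total counts per muscle ran from 36684220 to 46312167.

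In the VDR-OE arm, 33 of the 37 genes passed a filter that asked for the CPM of 10 reads in at least 7 of 14 muscles. Of these 33, 29 were higher and 4 lower on average in the VDR-OE leg, beside 48.8% of all 14526 genes that were higher and 7.14% called by edgeR's test in that contrast. They were higher in the VDR-OE leg of all 7 rats in 8 cases and lower in all 7 in 2 cases, beside 5.03% and 5.8% of all genes. The median over the 33 genes of the mean within-rat log2 ratio (log2 CPM of the treated leg minus that of the control leg) was 0.98, and -0.01 over all genes. Without rat 419 the median was 1.01, with 29 genes higher and 4 lower on average, and over the 6 rats left 12 genes were higher in all and 3 lower in all, beside 6.12% and 7.64% of all genes. Leaving out that rat moved the mean log2 ratio of a gene by at most 0.25 upward, in Cxcl9, and 0.18 downward, in Tnfrsf12a. In the VDR-KD arm, 34 of 37 genes passed, and 28 of these were higher on average in the labelled leg, beside 50.4% of all 14652 genes. Their median log2 ratio was 0.37, beside 0.003 over all genes. That median was 0.66 without rat 423, and 0.19, 0.21 and 0.22 without rats 424, 426 and 429. The labelled leg was higher in at least 5 of 7 rats for 22 of the 34 genes and for 29.9% of all genes.

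None of the 34 genes tested passed an adjusted p of 0.05 in the VDR-KD arm by edgeR's quasi-likelihood test, and 0.0% of all genes tested did. Adjusted p-values of the 34 genes ran from 0.803 to 0.871 by edgeR. At an unadjusted p under 0.05 there were 0 of these 34 genes and 2.7% of all genes by the same test, and DESeq2 and edgeR's likelihood ratio test also called 0 genes. Without rat 423, 13 of the 34 genes had an unadjusted p under 0.05 by edgeR, beside 18.1% of all genes in the same fit, and 0 were called. The standard errors of the log2 fold changes ran from 0.10 to 0.69 and an adjusted p above the threshold does not show that the legs were alike. In all 7 rats the labelled leg was higher for 0 and lower for 0 of the 34 genes, beside 0.43% and 0.45% of all genes. No gene of the 34 had groups that did not overlap in the VDR-KD arm, where 0.0137% of all genes had labelled legs all above the scramble legs and 0.0% all below.

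**Figure D1:**
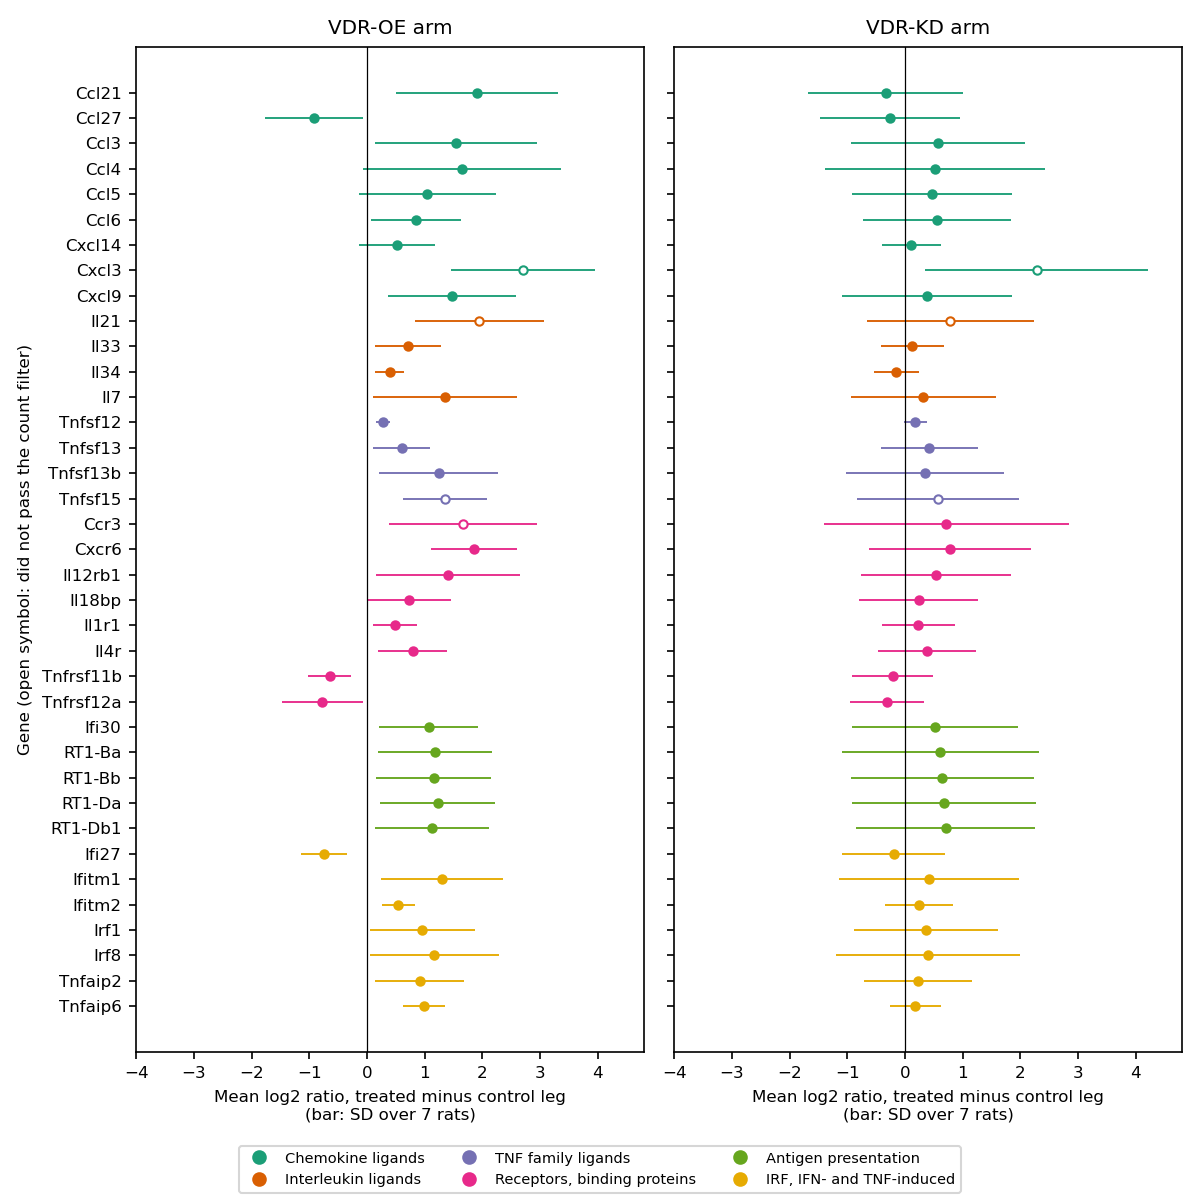
Mean within-rat log2 ratio (treated leg minus control leg, log2 CPM) of each of the 37 genes in the VDR-OE arm (left) and the VDR-KD arm (right), with bars for the SD over 7 rats, colours for the class and open symbols for genes that did not pass the count filter. The genes were selected for a difference in the VDR-OE arm, where most means lie above 0. In the VDR-KD arm most means also lie above 0. The bars of all genes except Cxcl3 cross 0 there, and some bars, such as those of Ccl4 and Ccl5, cross it in the VDR-OE arm. A bar shows the spread between rats and not the error of a mean.

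Among the chemokine ligands, 7 of the 8 that passed the filter were higher on average in the VDR-OE leg, and Ccl27 was lower. Cxcl9, an interferon-gamma-induced ligand that attracts activated T cells, ranged from 31.8 to 116 CPM (median 40.2) in empty-vector legs and from 33.7 to 278 CPM (median 159) in VDR-OE legs. Its mean log2 ratio was 1.47 ± 1.11 (SD, n = 7), and it was higher in 6 of 7 rats although the groups overlapped. In the scramble legs Cxcl9 ranged from 45.2 to 162 CPM (median 104), and in the legs labelled VDR-KD from 28.7 to 212 CPM (median 129). These 2 groups overlapped almost wholly, with a log2 fold change of 0.46 (SE 0.50).

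Ccl6, a rodent CC chemokine made mainly by myeloid cells, ranged from 14.2 to 43.7 CPM (median 33.3) with empty vector and from 24.4 to 80.5 CPM (median 49.9) with VDR-OE. It was higher in 6 of 7 rats, with a mean log2 ratio of 0.85 ± 0.78 (SD, n = 7). With scramble, Ccl6 ranged from 26.0 to 157 CPM (median 47.7), and in legs labelled VDR-KD from 41.4 to 182 CPM (median 97.2). The labelled group had the higher median, and its log2 fold change was 0.60 (SE 0.43). Cxcl14, a chemokine expressed in many resting tissues, ranged from 21.7 to 32.8 CPM (median 23.2) with empty vector and from 18.4 to 51.2 CPM (median 42.3) with VDR-OE. Cxcl14 was higher in every VDR-OE leg but that of rat 419, where its log2 ratio was -0.84. Cxcl14 differed little in the VDR-KD arm, with 20.2 to 61.0 CPM (median 34.7) in control legs, 22.05 to 63.1 CPM (median 31.6) in labelled legs and a log2 fold change of 0.12 (SE 0.18).

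The 2 chemokines that signal in skin and lymphatic traffic, Ccl27 and Ccl21, lie close together on chromosome 5 of the RefSeq assembly GRCr8 and took opposite signs in the VDR-OE leg. Ccl27, a ligand of Ccr10, ranged from 0.998 to 1.51 CPM (median 1.155) with empty vector and from 0.241 to 1.295 CPM (median 0.773) with VDR-OE, on at most 52 reads a muscle. It was lower in 6 of 7 rats, with rat 416 the exception, and the groups overlapped. Ccl27 in the VDR-KD arm ranged from 0.227 to 1.67 CPM (median 0.979) in control legs and from 0.401 to 1.74 CPM (median 0.634) in labelled legs, a log2 fold change of -0.29 (SE 0.42). Ccl21, the lymphatic ligand of Ccr7, ranged from 1.94 to 23.6 CPM (median 6.87) with empty vector and from 15.4 to 28.3 CPM (median 19.97) with VDR-OE. Its mean log2 ratio was 1.91 ± 1.41 (SD, n = 7), with rat 420 lower at -0.62. The mean of Ccl21 in the VDR-KD arm had the other sign, with a log2 fold change of -0.32 (SE 0.45) that became 0.005 without rat 427.

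Ccl3, Ccl4 and Ccl5, chemokines that macrophages and T cells secrete, had mean log2 ratios of 1.54, 1.65 and 1.05 in the VDR-OE arm and log2 fold changes of 0.62, 0.69 and 0.45 in the VDR-KD arm. Each was higher in 6 of 7 VDR-OE legs, and each was lower in that of rat 416. Ccl3 and Ccl4 are similar in sequence, and how reads shared between such genes were counted is not given in the sources used here. Cxcl3, a neutrophil-attracting ligand of Cxcr2, had too few reads for a ratio to be read from them. It was at 0 reads in 5 of 7 empty-vector legs, with at most 1 read, and at 1 to 15 reads in VDR-OE legs, and it had 0 to 3 reads in scramble legs and 0 to 33 reads in legs labelled VDR-KD.

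**Figure D2:**
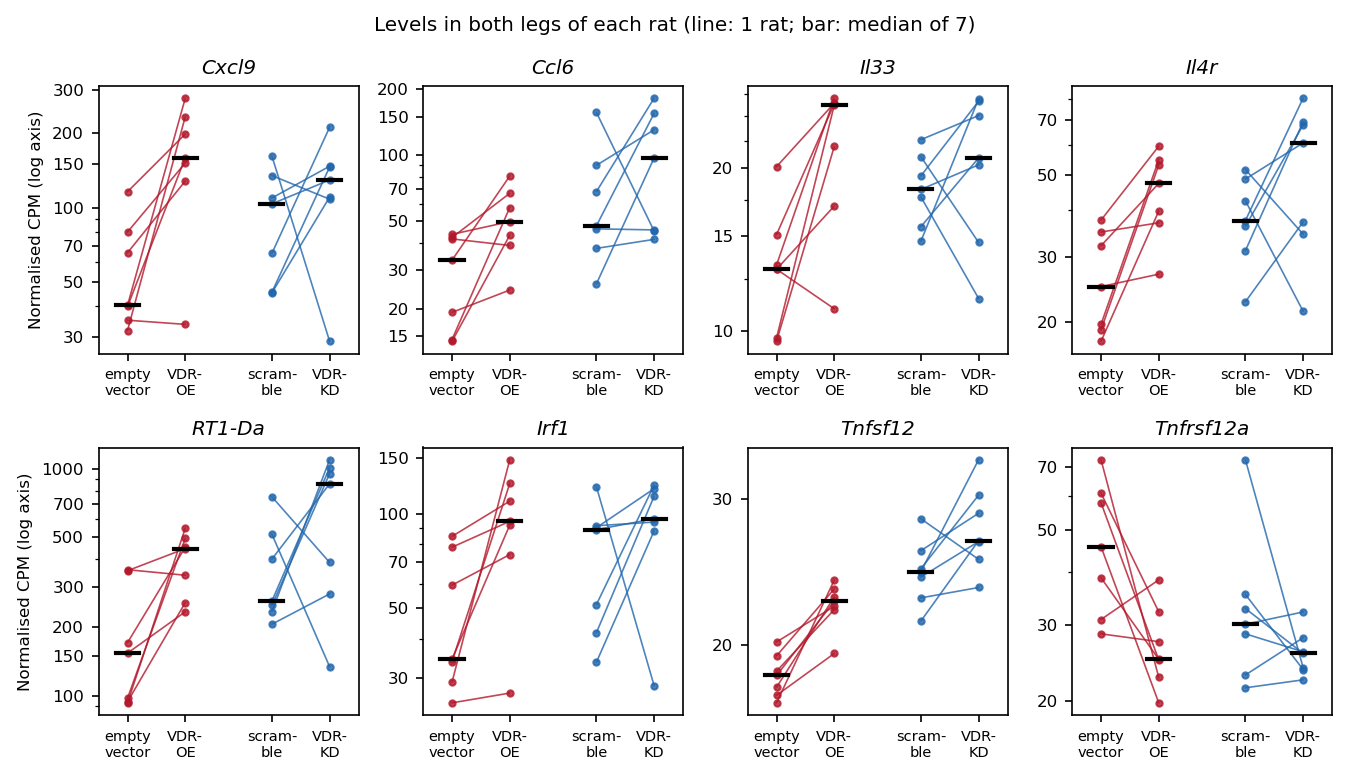
Normalised CPM on a log axis of 8 of the genes in both legs of each rat, from left to right the empty-vector and VDR-OE legs (red) and the scramble legs and legs labelled VDR-KD (blue), with a line for each rat and a black bar for the median of 7. Tnfsf12 spans a narrow range in every group, Tnfrsf12a is lower in 6 of 7 VDR-OE legs, and in the VDR-KD arm the lines of Cxcl9, RT1-Da and Irf1 cross.

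All 3 interleukin ligands past the filter were higher on average in the VDR-OE leg. Il33, an alarmin released from the nuclei of damaged stromal cells, ranged from 9.58 to 20.2 CPM (median 13.0) with empty vector and from 11.0 to 27.0 CPM (median 26.2) with VDR-OE. It was higher in 6 of 7 rats and lower in rat 419 (-0.24), with a mean log2 ratio of 0.71 ± 0.57 (SD, n = 7). Il33 ranged from 14.7 to 22.6 CPM (median 18.3) in scramble legs and from 11.5 to 26.9 CPM (median 20.9) in labelled VDR-KD legs, so the latter group spread to both sides of the former. The log2 fold change was 0.14 (SE 0.19).

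Il34, which shares the receptor Csf1r with the macrophage growth factor Csf1, ranged from 5.44 to 8.87 CPM (median 6.67) with empty vector and from 7.68 to 10.9 CPM (median 9.48) with VDR-OE. It was higher in 6 of 7 rats by a mean log2 ratio of 0.40 ± 0.25 (SD, n = 7). Scramble legs lay between 6.78 and 10.5 CPM (median 8.835) and legs labelled VDR-KD between 6.65 and 9.38 CPM (median 7.525). Its log2 fold change there was -0.15 (SE 0.15), and Il34 and Ccl21 were the only ones of the 33 genes tested in both arms whose mean took opposite signs.

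Il7, a survival factor of lymphocytes, ranged from 0.056 to 0.562 CPM (median 0.213) with empty vector and from 0.431 to 0.871 CPM (median 0.553) with VDR-OE. It ranged from 0.24 to 0.816 CPM (median 0.488) with scramble and from 0.201 to 1.22 CPM (median 0.681) in labelled VDR-KD legs, a log2 fold change of 0.37 (SE 0.44). Both pairs of groups overlapped, and Il7 rested on 2 to 71 reads a muscle. Il21, a T-cell product, did not pass the filter in either arm and had 0 to 3 reads with empty vector, 1 to 11 with VDR-OE, 1 to 18 with scramble and 3 to 23 in labelled VDR-KD legs.

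The tumour necrosis factor ligands that passed the filter were higher in all 7 VDR-OE legs. Tnfsf12 (TWEAK), a widely expressed ligand that acts on muscle, ranged from 17.0 to 20.2 CPM (median 18.4) with empty vector and from 19.5 to 24.0 CPM (median 22.6) with VDR-OE. The shift was small, at a mean log2 ratio of 0.28 ± 0.12 (SD, n = 7), and so was the spread, since Tnfsf12 had the lowest SD between muscles of the genes in every group (0.09 to 0.17 on the log2 scale). Tnfsf12 in the VDR-KD arm ranged from 21.4 to 28.4 CPM (median 24.5) in control legs and from 23.5 to 33.5 CPM (median 26.7) in labelled legs. It was higher in 6 of 7 rats, with a log2 fold change of 0.18 (SE 0.10), which had the smallest unadjusted p of the genes (0.0976 by edgeR, adjusted p = 0.803).

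Tnfrsf12a (Fn14), the receptor of Tnfsf12, which muscle fibres raise after injury or denervation, had the opposite sign. It ranged from 28.6 to 72.9 CPM (median 45.7) with empty vector and from 19.8 to 38.3 CPM (median 25.0) with VDR-OE. The groups overlapped, with Tnfrsf12a lower in 6 of 7 rats, a mean log2 ratio of -0.77 ± 0.70 (SD, n = 7) and the smallest median log2 ratio of all 37 genes (-0.92). With scramble the receptor ranged from 21.4 to 73.0 CPM (median 30.2), and in legs labelled VDR-KD from 22.4 to 32.2 CPM (median 25.8). It was lower in 4 of 7 rats there, with a log2 fold change of -0.30 (SE 0.21).

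Tnfsf13 (APRIL) and Tnfsf13b (BAFF) are survival factors of B cells and plasma cells, and Tnfsf13 lies next to Tnfsf12 in the genome. Tnfsf13 ranged from 3.999 to 8.30 CPM (median 5.945) with empty vector, 7.03 to 10.1 (median 8.595) with VDR-OE, 6.38 to 13.8 (median 9.14) with scramble and 6.77 to 17.3 (median 15.7) in labelled VDR-KD legs. Tnfsf13b ranged from 0.422 to 2.13 CPM (median 0.638), 0.797 to 3.76 (median 2.43), 0.898 to 3.67 (median 2.26) and 0.717 to 5.33 (median 2.755) in the same order of groups. Their mean log2 ratios in the VDR-OE arm were 0.60 and 1.24, and their log2 fold changes in the VDR-KD arm were 0.44 (SE 0.29) and 0.41 (SE 0.47). Tnfsf15 stayed under the filter, with 1 to 8 reads in empty-vector legs, 9 to 21 in VDR-OE legs, 3 to 22 in scramble legs and 5 to 26 in labelled VDR-KD legs.

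Of the 7 receptors and binding proteins past the filter, 5 were higher and 2 lower on average in the VDR-OE leg. Il4r, the receptor chain shared by Il4 and Il13, ranged from 17.7 to 37.6 CPM (median 24.9) with empty vector and from 26.9 to 59.7 CPM (median 47.3) with VDR-OE. Il4r was higher in all 7 rats, by 0.79 ± 0.60 on the log2 scale (SD, n = 7), with overlapping groups. With scramble it ranged from 22.6 to 51.6 CPM (median 37.5) and in labelled VDR-KD legs from 21.4 to 80.4 CPM (median 60.9), and it was higher in 5 of 7 rats with a log2 fold change of 0.40 (SE 0.29).

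Il18bp, a secreted protein that traps Il18, ranged from 4.53 to 17.1 CPM (median 9.67) with empty vector and from 4.18 to 25.1 CPM (median 15.8) with VDR-OE. Il18bp in the VDR-KD arm ranged from 6.64 to 18.4 CPM (median 12.3) with scramble and from 5.59 to 22.9 CPM (median 13.73) in the labelled legs. The groups of Il18bp overlapped in both arms, and its log2 fold change in the VDR-KD arm was 0.27 (SE 0.35). Tnfrsf11b (osteoprotegerin), a soluble decoy receptor for the bone-resorbing ligand Tnfsf11, ranged from 2.21 to 13.2 CPM (median 5.29) with empty vector and from 1.70 to 7.01 CPM (median 3.20) with VDR-OE. It was lower in all 7 VDR-OE legs, by a mean log2 ratio of -0.64 ± 0.37 (SD, n = 7). Tnfrsf11b in the VDR-KD arm ranged from 2.95 to 5.68 CPM (median 3.44) with scramble and from 2.14 to 5.44 CPM (median 3.65) in the labelled legs, with a log2 fold change of -0.20 (SE 0.25).

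Cxcr6, the receptor by which activated T cells respond to Cxcl16, was the only one of the 33 genes whose VDR-OE and empty-vector legs did not overlap, where 0.503% of all genes lay apart in the upward direction. It ranged from 0.242 to 0.822 CPM (median 0.547) with empty vector and from 0.847 to 3.33 CPM (median 2.11) with VDR-OE. Cxcr6 in the VDR-KD arm ranged from 0.359 to 2.02 CPM (median 1.145) with scramble and from 0.602 to 3.27 CPM (median 2.62) in the labelled legs. Its log2 fold change of 0.83 (SE 0.49) was the largest of the 34 genes in that arm, with 5 of 7 rats higher (adjusted p = 0.803 by edgeR). Il1r1 and Il12rb1, the signalling receptor of Il1 and a shared subunit of the Il12 and Il23 receptors, had mean log2 ratios of 0.49 and 1.40 in the VDR-OE arm and log2 fold changes of 0.24 and 0.60 in the VDR-KD arm. Ccr3, the eotaxin receptor of eosinophils, had 1 to 11 reads with empty vector, 6 to 23 with VDR-OE, 1 to 28 with scramble and 2 to 33 in labelled VDR-KD legs. It passed the filter only in the VDR-KD arm, with a log2 fold change of 0.67 and the largest SE of the 34 genes (0.69).

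The antigen presentation genes took the same direction in each rat. RT1-Ba and RT1-Bb encode the chains of the rat class II molecule RT1-B, RT1-Da and RT1-Db1 those of RT1-D, and Ifi30 encodes a lysosomal reductase that unfolds antigens for class II loading. The class II genes lie close together on chromosome 20, and their promoters (250 bases before to 50 after the annotated start, from RefSeq on build GRCr8) are shown because the values of these genes varied together. CCAAT, the core of the Y box bound by NF-Y in class II promoters, is in capitals on either strand (CCAAT, or ATTGG on the other strand).
RT1-Ba, chr20:4576807-4577106, plus strand: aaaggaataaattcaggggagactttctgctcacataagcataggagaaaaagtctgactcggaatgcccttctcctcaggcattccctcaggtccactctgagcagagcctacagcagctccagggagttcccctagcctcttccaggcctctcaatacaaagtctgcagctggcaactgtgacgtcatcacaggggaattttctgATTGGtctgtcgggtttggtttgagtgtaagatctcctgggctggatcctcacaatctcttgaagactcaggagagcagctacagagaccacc
RT1-Bb, chr20:4604069-4604368, minus strand: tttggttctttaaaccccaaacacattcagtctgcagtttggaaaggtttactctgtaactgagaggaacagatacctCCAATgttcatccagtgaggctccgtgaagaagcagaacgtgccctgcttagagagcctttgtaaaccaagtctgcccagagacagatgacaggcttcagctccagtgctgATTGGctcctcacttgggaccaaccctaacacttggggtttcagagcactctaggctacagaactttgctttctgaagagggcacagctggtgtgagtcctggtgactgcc
RT1-Da, chr20:4515165-4515464, plus strand: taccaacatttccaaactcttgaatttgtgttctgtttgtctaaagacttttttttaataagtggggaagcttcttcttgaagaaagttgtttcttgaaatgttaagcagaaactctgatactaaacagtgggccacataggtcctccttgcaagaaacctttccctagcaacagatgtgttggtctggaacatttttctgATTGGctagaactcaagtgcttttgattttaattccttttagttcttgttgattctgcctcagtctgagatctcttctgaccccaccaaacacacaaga
RT1-Db1, chr20:4560113-4560412, minus strand: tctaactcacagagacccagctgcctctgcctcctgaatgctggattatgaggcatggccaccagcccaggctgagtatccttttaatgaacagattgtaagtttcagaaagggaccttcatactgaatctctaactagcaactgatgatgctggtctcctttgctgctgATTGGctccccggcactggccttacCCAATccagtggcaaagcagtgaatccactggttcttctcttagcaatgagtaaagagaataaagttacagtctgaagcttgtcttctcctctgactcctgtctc
The nearest match to the start begins 43, 61, 49 and 55 bases before it in the order shown. CCAAT on either strand was in all 4 class II promoters, in 16 of the 29 promoter entries of the genes (28 genes, Il33 with 2 entries) and in 37.5% of all 33469 promoters of the same length. The promoter of Ifi30, which took the same direction as the class II genes in each rat, had no match, so 4 of the 5 promoters of this class had one. A match is a description of the letters and not evidence of binding.

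RT1-Da ranged from 93.1 to 359 CPM (median 154) with empty vector and from 234 to 547 CPM (median 445) with VDR-OE. RT1-Bb ranged from 124 to 480 CPM (median 161) with empty vector and from 218 to 683 CPM (median 549.9) with VDR-OE. RT1-Db1 ranged from 84.3 to 328 CPM (median 138) with empty vector and from 203 to 535 CPM (median 363) with VDR-OE. In each case the groups overlapped, the control legs of rats 416 and 418 being the highest, and 6 of 7 rats were higher, rat 416 being the exception. The mean log2 ratios of the 5 genes of this class were close to each other, from 1.07 for Ifi30 to 1.23 for RT1-Da.

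With scramble and in the labelled legs the spread was wider. RT1-Da ranged from 207 to 752 CPM (median 261) with scramble and from 134 to 1095 CPM (median 858) in the labelled legs. RT1-Bb ranged from 280.0 to 936 CPM (median 330.2) with scramble and from 157 to 1422 CPM (median 1082) in the labelled legs. RT1-Db1 ranged from 208 to 653 CPM (median 255) with scramble and from 125 to 1074 CPM (median 778) in the labelled legs. The labelled legs thus held both the lowest and the highest values of each gene. The log2 fold changes were 0.76 (SE 0.56), 0.72 (SE 0.56) and 0.765 (SE 0.55), with 5 of 7 rats higher for each. RT1 genes are polymorphic and similar to each other, and the reference is of another strain than the Wistar rats, but both legs of a rat share their alleles.

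By rat, rat 416 had all 5 genes of the class lower in its VDR-OE leg, and the other 6 rats had them higher. All 5 were lower in the labelled VDR-KD leg of rats 423 and 425 and higher in those of the other 5 rats. RT1-Da was at 514 CPM in the scramble leg and 134 CPM in the labelled leg of rat 423, at 752 and 386 CPM in rat 425, and at 235 and 1095 CPM in rat 427. The median log2 ratio of the class was -1.94 in rat 423 and 2.23 in rat 427, so the spread between rats was larger than the mean difference between the legs.

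Of the 7 interferon regulatory factors and interferon- or tumour necrosis factor-induced genes, 6 were higher and Ifi27 was lower on average in the VDR-OE leg. Irf1, a transcription factor induced by interferon-gamma, ranged from 25.1 to 84.7 CPM (median 34.5) with empty vector and from 26.9 to 148 CPM (median 94.6) with VDR-OE. Irf1 was higher in all 7 rats with overlapping groups, by 0.96 ± 0.91 on the log2 scale (SD, n = 7). Irf1 in the VDR-KD arm ranged from 33.7 to 122 CPM (median 89.0) with scramble and from 28.4 to 123 CPM (median 96.3) in the labelled legs. It was higher in 6 of 7 rats and lower in rat 423, with a log2 fold change of 0.43 (SE 0.42).

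The promoters of Irf1 and of Cxcl9, a target of interferon-gamma, are shown for the gamma-activated site (GAS, TTCNNNGAA, which reads the same on both strands), in capitals together with CCAAT on either strand.
Irf1, chr10:38417685-38417984, plus strand: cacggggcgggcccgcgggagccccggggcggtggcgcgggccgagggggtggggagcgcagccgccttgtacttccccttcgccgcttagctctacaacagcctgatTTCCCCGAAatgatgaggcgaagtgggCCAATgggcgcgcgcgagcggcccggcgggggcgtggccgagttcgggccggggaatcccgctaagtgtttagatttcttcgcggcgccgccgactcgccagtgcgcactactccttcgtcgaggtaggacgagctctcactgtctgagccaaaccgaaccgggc
Cxcl9, chr14:16006916-16007215, plus strand: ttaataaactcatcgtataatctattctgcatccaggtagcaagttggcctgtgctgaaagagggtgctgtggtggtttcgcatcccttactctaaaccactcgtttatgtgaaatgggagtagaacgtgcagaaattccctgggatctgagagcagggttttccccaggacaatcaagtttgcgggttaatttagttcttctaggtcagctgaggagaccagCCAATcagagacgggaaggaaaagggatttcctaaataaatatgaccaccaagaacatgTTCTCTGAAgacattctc
The TTCNNNGAA match begins 142 bases before the annotated start in Irf1 and 32 bases after it, not upstream, in Cxcl9. TTCNNNGAA was in 4 of 29 promoter entries of the genes (Cxcl9, Irf1, Irf8 and Tnfrsf12a) and in 8.87% of all promoters. The core of the interferon-stimulated response element (GAAANNGAAA, either strand) was in 5 of 29 entries (Ifi27, Ifitm2, Il12rb1, Il18bp and Tnfsf13b) and in 3.92% of all promoters. None of the matches of the motifs in the printed promoters overlapped. The VDR element of direct repeat 3 type was in 0 of 29 entries and in 0.35% of all promoters, which says only that its letters are not in these windows.

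Ifi27, an interferon-induced protein of mitochondria and nuclear membrane, ranged from 552 to 1271 CPM (median 987) with empty vector and from 226 to 831 CPM (median 498) with VDR-OE. It was lower in all 7 VDR-OE legs, by a mean log2 ratio of -0.75 ± 0.40 (SD, n = 7), and the groups overlapped. Ifi27 in the VDR-KD arm ranged from 505 to 1628 CPM (median 777) with scramble and from 373 to 1064 CPM (median 624) in the labelled legs. Its log2 fold change of -0.16 (SE 0.31) rested on rat 423, in which it was -2.12, and was 0.12 without that rat.

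Tnfaip2, a gene induced by tumour necrosis factor, ranged from 37.3 to 133 CPM (median 51.6) with empty vector, 55.15 to 143 (median 119) with VDR-OE, 43.1 to 108 (median 92.2) with scramble and 55.1 to 197 (median 95.9) in labelled VDR-KD legs. It was higher in 6 of 7 VDR-OE legs and in 4 of 7 labelled VDR-KD legs. Irf8, a factor of myeloid development, and the antiviral membrane proteins Ifitm1 and Ifitm2 had mean log2 ratios of 1.17, 1.31 and 0.55 in the VDR-OE arm and log2 fold changes of 0.54, 0.51 and 0.25 in the VDR-KD arm. Tnfaip6 (TSG-6), a hyaluronan-binding protein, was higher in all 7 VDR-OE legs by a mean log2 ratio of 0.98 and had a log2 fold change of 0.18 in the VDR-KD arm. Ifitm1 and Ifitm2 are similar genes, and strand use in the counting is not given in the sources used here.

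**Figure D3:**
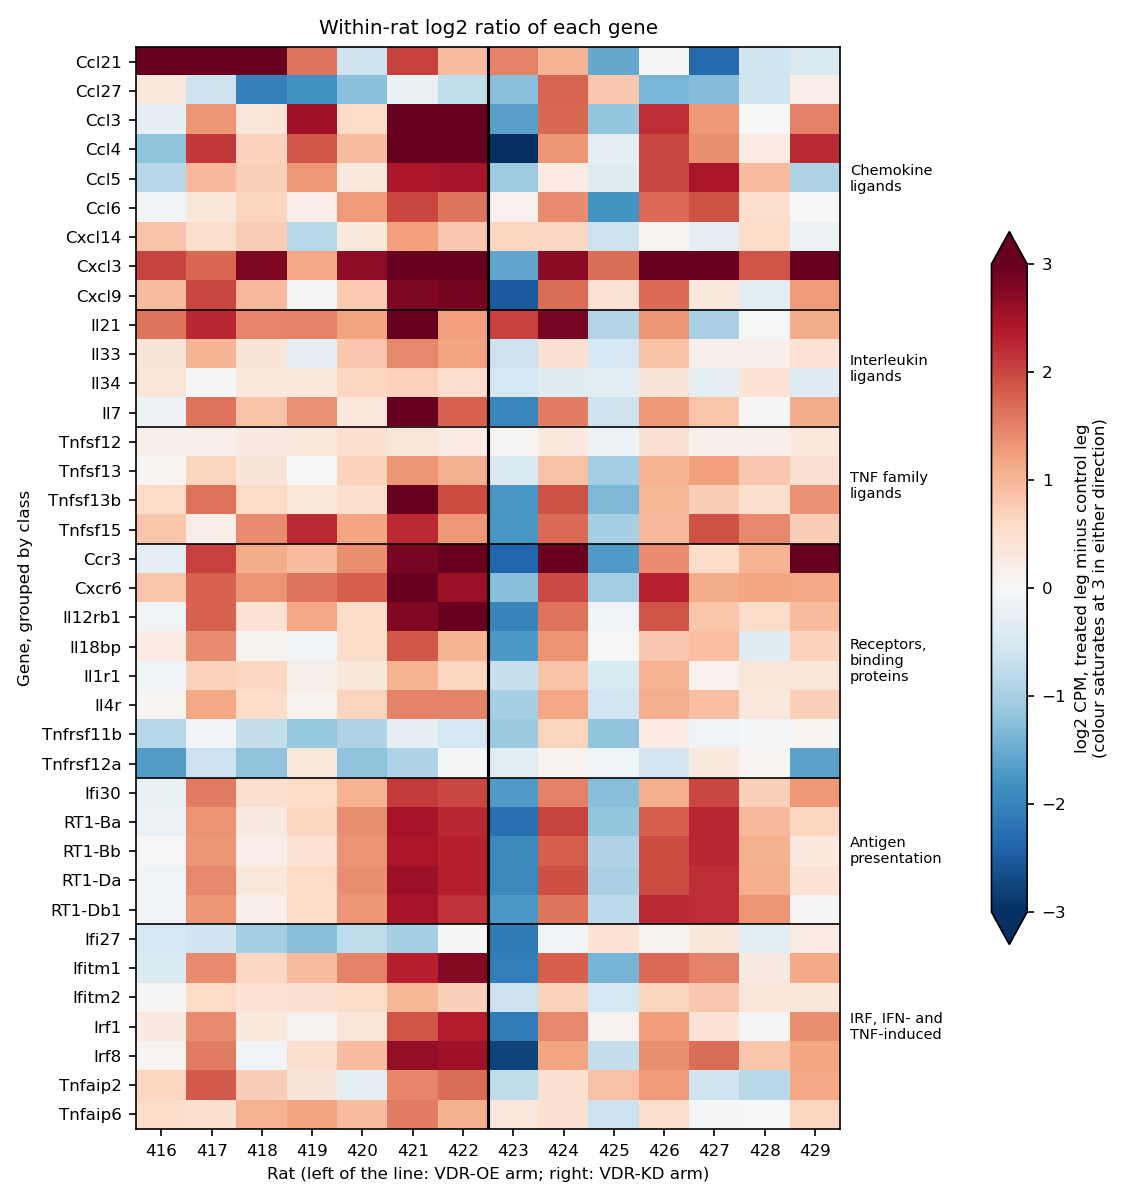
Within-rat log2 ratio (treated leg minus control leg, log2 CPM) of the 37 genes in rows, grouped by class, and the 14 rats in columns, with the VDR-OE arm left of the line; red is higher and blue lower in the treated leg, and the colour saturates at 3 in either direction. Most genes of a rat share a direction, with rats 421 and 422 mostly red and rat 416 mixed in the VDR-OE arm, and rats 423 and 425 mostly blue in the VDR-KD arm.

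Within a rat, most of the genes took the same direction. In the VDR-OE arm, the number of the 33 genes higher in the VDR-OE leg ran from 17 in rat 416 to 29 in rats 421 and 422, while 46.3% to 52.4% of all genes were higher in the 7 rats. The median log2 ratio of the 33 genes was 0.04 in rat 416, 0.38 in rat 419 and 1.995 in rat 421. The Vdr log2 ratio was 10.02 in rat 416, which had the smallest median, and -0.08 in rat 419. In the VDR-KD arm, only 5 of the 34 genes were higher in the labelled leg in rat 423 and 5 in rat 425, against 25 to 32 in each of the other 5 rats. The median log2 ratio of the 34 genes was -1.45 in rat 423 and -0.63 in rat 425, and ran from 0.34 to 1.34 in the others, beside 49.2% to 50.9% of all genes higher in the 7 rats. The Vdr log2 ratio was 0.58 in rat 423 and -1.46 in rat 425. A relation of these genes to the level of Vdr was not tested in either arm.

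The genes also varied between the muscles of a group, control legs included. The SD over the 7 empty-vector legs had a median of 0.73 on the log2 scale over the 33 genes, beside 0.27 over all genes tested. Over the 7 scramble legs the median was 0.65 for the 34 genes tested in that arm, beside 0.28. In the VDR-OE legs it was 0.49 beside 0.23, and in the labelled VDR-KD legs 0.86 beside 0.36. These SDs are of single genes and do not show whether genes moved together. They include counting error, which is larger for genes with few reads.

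Genes listed as markers of several leukocyte types moved with these genes, which does not show that each cell type changed separately. Of 51 markers listed for macrophages, T and NK cells, B cells, dendritic cells, mast cells, neutrophils and lymphatic endothelium, 19 could be named in the count files, all from the same supplemental list and so selected in the same contrast. No named marker was at 0 in any muscle, the lowest being 7 reads. All 19 were higher on average in the VDR-OE leg (median log2 ratio 1.15), beside 48.8% of all genes. All 19 were also higher on average in the labelled VDR-KD leg (median 0.53), beside 50.4% of all genes. Genes of 1 muscle share a library, so these are not 19 separate agreements. The summed level of 7 of 12 macrophage markers ran from 99.2 to 405 CPM with empty vector, 290 to 802 with VDR-OE, 268 to 1073 with scramble and 259 to 1514 in labelled VDR-KD legs. That of 4 of 12 T and NK cell markers (Cd3d, Cd2, Cd4 and Cd8b) ran from 15.5 to 69.5, 51.6 to 106, 42.3 to 166 and 39.3 to 192 CPM in the same order. Most of this sum was Cd4 alone, with medians of 30.36, 57.41, 56.2 and 112.79 CPM, beside 44.07, 83.65, 66.2 and 173.1 CPM for the sum. The sum is therefore mainly a reading of 1 gene.

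The remaining lists had fewer named genes. The summed level of 2 of 6 B cell markers ran from 1.75 to 6.26 CPM with empty vector, 5.15 to 12.0 with VDR-OE, 2.31 to 14.6 with scramble and 2.47 to 19.3 in labelled VDR-KD legs. That of 2 of 6 dendritic cell markers ran from 1.10 to 5.78, 4.30 to 6.80, 2.10 to 8.75 and 1.92 to 12.1 CPM, and that of 3 of 6 mast cell markers from 6.60 to 24.6, 11.8 to 20.7, 10.5 to 20.3 and 12.7 to 30.3 CPM. Pdpn, the 1 named gene of 4 lymphatic markers, ran from 5.93 to 14.2, 10.5 to 22.7, 8.45 to 32.5 and 10.1 to 41.5 CPM. Neutrophil markers and the muscle fibre genes of the labelled tissue could not be matched by name and were not checked here.

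By rat, the macrophage sum had a log2 ratio of -0.22 in rat 416 and of 0.24 to 2.47 in the other rats of the VDR-OE arm. The macrophage ratio in the VDR-KD arm was -0.81 in rat 423, -1.52 in rat 425 and 0.69 to 1.675 in the others. The T and NK cell sum was -0.81 and -1.53 in rats 423 and 425 and 0.41 to 1.95 in the others. In every rat of both arms it had the same sign as the macrophage sum. These sums, of which the T and NK cell sum is mainly Cd4, are therefore not shown to be separate readings. Rats 423 and 425, with most of the cytokine and antigen presentation genes lower in the labelled leg, were also the rats of that arm with the macrophage and the T and NK cell sums lower. The mast cell sum went otherwise, with a log2 ratio of 1.03 in rat 423 and -0.68 in rat 425, and of 1.2 in rat 416 and -0.25 in rat 420 of the VDR-OE arm. Pdpn was lower in the labelled leg of 4 of 7 rats, among them rats 423 and 425 at -0.39 and -0.74. The part of leukocyte content in the values of the genes was not tested.

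**Figure D4:**
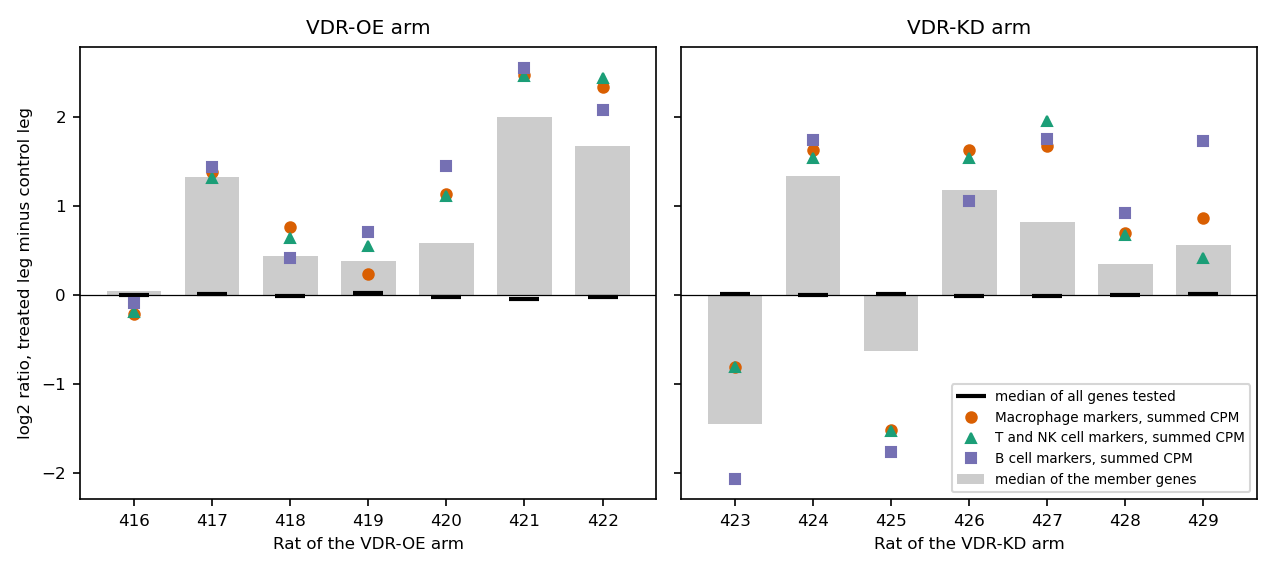
Log2 ratio (treated leg minus control leg) in each rat of the VDR-OE arm (left) and the VDR-KD arm (right): bars are the median of the genes past the filter, black dashes the median of all genes tested, and symbols the summed CPM of macrophage, T and NK cell and B cell markers. Bars and symbols lie on the same side of 0 in every rat but 416, and all 3 marker sums are below 0 in rats 416, 423 and 425.

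Other genes of these pathways were taken from a list of 52, of which 13 could be named in the count files, again through the supplemental list. All 12 that passed the filter were higher on average in the VDR-OE leg, with a median log2 ratio of 0.88, beside 48.8% of all genes higher. Ciita, the master activator of class II genes, had a median of 12.0 CPM with empty vector and 30.1 CPM with VDR-OE, and Cd74, the class II invariant chain, 436 and 1047 CPM. Their mean log2 ratios of 1.33 ± 1.11 and 1.09 ± 0.90 (SD, n = 7) were close to those of the RT1 genes. Socs3, an inhibitor of cytokine receptor signalling, varied more between rats, with 5 of 7 rats higher and a mean log2 ratio of 0.89 ± 1.003. All 12 were also higher on average in the labelled VDR-KD leg, with a median log2 ratio of 0.36, beside 50.4% of all genes higher. In that arm 0 of 12 passed an adjusted or an unadjusted p of 0.05 by edgeR.

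Side by side, the 33 genes tested in both arms had a mean log2 ratio of the same sign in 31 cases, 27 higher and 4 lower in both, beside 70.9% of the 14406 genes tested in both arms. The 4 lower in both were Ccl27, Ifi27, Tnfrsf11b and Tnfrsf12a. The control groups differed as well. For each of the 29 genes higher on average with VDR-OE, the median CPM was higher in scramble than in empty-vector legs (Cxcl9 at 104 and 40.2 CPM). For each of these 4 it was lower (Ifi27 at 777 and 987 CPM). The empty-vector legs are part of the contrast that chose the genes, and the cause of this difference was not tested. The arms share no rats or libraries, but the VDR-OE values are those by which the genes were selected, and no gene passed the test in the VDR-KD arm. Whether the response of these genes differed between VDR-OE and VDR-KD was not tested, since the VDR-OE values chose them.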

How the data were processed

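Raw counts per gene, 1 file for each of 28 muscles, were deposited by the authors, who trimmed adaptors with trimmomatic and aligned and counted paired reads with Rsubread on rat genome version 6.0 with Ensembl release 89 (per the labels, with bcl2fastq 2.17.1.14, FastQC 0.11.5 and edgeR 3.18.1 among the tools). The strand setting is not given in the sources used here. Depth was 36684220 to 46312167 counts per muscle, at which 10 reads are 0.239 CPM (VDR-OE) or 0.251 CPM (VDR-KD). That level had to be exceeded in at least 7 of the 14 muscles of an arm.

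Each arm was fitted with edgeR 4.0.16 in R 4.3.3 (quasi-likelihood test, trimmed mean of M-values, the rat as a block, Benjamini-Hochberg adjustment over all genes). The study used the likelihood ratio fit of the same design, which is given as an alternative. The block follows the design, with both legs from 1 rat; the correlation of their deviations across genes ran from -0.309 to 0.649 by rat in the VDR-OE arm (mean 0.263) and from -0.677 to 0.39 in the VDR-KD arm (mean -0.108). Within-rat ratios are differences of log2 CPM with a prior count of 0.5. Any 2 muscles of a group differed by more than sampling noise, the lowest chi-square per degree of freedom between 2 of them being 23.3.

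Symbols come from the identifiers that the study's supplemental list pairs with them, and of the values in that list none was used. The part read here held 1998 symbols, fewer than the altered genes that the paper reports. Genes of these families outside those 1998 were not analysed here. The members, the marker lists and the tests were chosen with earlier results of these data known. Values of all 4 groups are given for the 3 genes of each class with the highest mean CPM, the genes lower in VDR-OE, the extremes of the VDR-OE ratio and Tnfsf12 with Tnfrsf12a. Ccl21 and Cxcr6 were added after their values were seen. Promoters are from RefSeq (GRCr8), with entries for 28 of 37 genes.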

Additional observations from a re-analysis of the deposited data

Results flagged for a closer look

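In 4 of 76 sets of 7 within-rat log2 ratios (37 genes and Vdr, in both arms), 1 rat stood apart from the others by Dixon's test, which chance passes in about 1 of 20 sets. In rat 423 of the VDR-KD arm the ratio of Irf1 was -2.10 and that of Ifi27 was -2.12, the lowest of their arm, and that of Cxcl3 was -1.56, on 1 read in its control leg and 0 in the labelled leg. In rat 421 of the VDR-OE arm the ratio of Il21 was 4.36, on 0 to 11 reads a muscle. No explanation of these values was tested.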

How the results depend on the processing

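The count of 0 genes called in the VDR-KD arm, and of 0 of the cytokine and immune genes, held under every alternative run: the likelihood ratio test, DESeq2 1.42.0, relative log expression factors, no replicate block (0 called), weaker filters, all 28 muscles in 1 fit and leaving out each rat (0 to 0). Over those alternatives the adjusted p of these genes ran from 0.272 to 0.9995. Of 476 alternative log2 fold changes of 34 genes in that arm, 474 kept their sign, and 2 turned: Ccl21 ran from -0.628 to 0.00521 (without rat 427) and Ifi27 from -0.26 to 0.123 (without rat 423) over the fits that left out 1 rat. The cause was not tested.

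The VDR-OE calls over all genes, which bear on these genes only as background, were 1037 by the quasi-likelihood test, with 887 when unpaired (no replicate block), 2262 by the likelihood ratio test with the block, 2767 by DESeq2 and 229 with all 28 muscles in 1 fit. Leaving out 1 rat gave 0 to 4768, with 0 without rat 421, 1 without 418, 4 without 420, 149 without 417, 209 without 419, 416 without 422 and 4768 without rat 416. The cause was not tested. The median log2 ratio of the genes kept its sign throughout, at 0.81 to 1.08 in the VDR-OE arm and 0.19 to 0.66 in the VDR-KD arm when 1 rat was left out, and at 0.96 and 0.37 with a prior count of 2. Ccr3, Cxcl3, Il21 and Tnfsf15 had too few reads for a fold change to be read from them.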

Other observations

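The highest and lowest ratios of the genes gathered in a few rats. In the VDR-OE arm, 22 of the 37 genes had their highest log2 ratio in rat 421 and 9 in rat 422, and 19 had their lowest in rat 416 and 10 in rat 419. In the VDR-KD arm, 26 had their lowest log2 ratio in rat 423 and 6 in rat 425, and 12, 9 and 9 had their highest in rats 427, 426 and 424. Genes of 1 muscle share a library and are not independent of each other.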
